A study of Mus musculus with 4 samples.

Results

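Amino acid transporters were followed in sciatic nerves that lack the kinase LKB1 in Schwann cells. The members are the genes on the array whose platform symbol places them in the solute carrier families SLC1, SLC3, SLC6, SLC7, SLC36, SLC38 or SLC43. By that rule they were 58 of the 19057 genes with a named probe, read by 120 probes. Of these, 57 encode transporters. The remaining gene, Slc7a6os, shares the first letters of its symbol with Slc7a6 and lies next to it, but encodes no transporter of the family, and its values are given apart. RNA came from mice at postnatal day 60, of a mixed FVB and C57BL/6 background. LKB1-SCKO mice had lost LKB1 (gene Stk11) from Schwann cells through Cre recombinase, whose promoter the labels do not name, and control mice carried the floxed gene with no Cre. Each genotype had 2 arrays, and each array held a pool of 3 sciatic nerves from 3 different mice. That makes 6 mice per genotype if no mouse gave nerves to both pools. The RNA is that of the whole nerve, in which fewer cells of a type and less RNA per cell cannot be told apart.

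Solute carriers of these families move amino acids, and in SLC6 also neurotransmitters, creatine, taurine and betaine, across the cell membrane or the lysosomal membrane. Many couple uptake to sodium, SLC36 members couple it to protons, and several SLC7 members are exchangers that reach the membrane only as partners of an SLC3 heavy chain. In nerve, Schwann cells take up glutamate and other amino acids from the fluid around the axon. LKB1 activates AMPK and related kinases, which restrain growth and the kinase complex mTORC1 when nutrients are short, and amino acid levels feed into the same complex at the lysosome.

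Stk11, the targeted gene, fell by 0.80 on the log2 scale in LKB1-SCKO, with log2 intensities of 9.70 and 9.83 against 8.93 and 9.01 (SE 0.133, adjusted p = 0.0448). The call was lost whichever pool was left out, at adjusted p between 0.0704 and 0.217. On each array 43.3% to 45.6% of all probes were detected. All 12 myelin genes on the array passed the detection filter, as did 5 of 10 neuron markers but not Nefl, Snap25, Syt1, Tubb3 and Elavl4. Other cells differed between pools. The summed level of skeletal muscle markers (13 of 13 on the array tested) was 59610 and 53458 in the control pools but 18231 and 72964 in the LKB1-SCKO pools. For red blood cell markers (5 of 6 tested, Epb42 not detected) it was 14331 and 11702 against 26411 and 51014, and for adipocyte markers (8 of 10 tested, Fabp4 and Retn not detected) 19886 and 10408 against 21959 and 17428. Levels of myelinating Schwann cell markers (12 of 12 tested) were 212696 and 214821 against 181082 and 191791. Those of non-myelinating and repair Schwann cells (14 of 15 tested) were 19194 and 16768 against 23114 and 22189. At an adjusted p under 0.05 (limma), 2 of these 14 rose and 1 fell, and 1 of the 12 myelinating markers fell. Over all genes tested 3.79% passed that threshold. Fibroblast markers (11 of 12 tested) summed to 86218 and 103202 against 81645 and 68522, lymphocyte and mast cell markers (8 of 12 tested) to 2704 and 2263 against 3319 and 3490, and neuron markers to 1349 and 1460 against 1748 and 1826. In these sums the genotypes overlapped for muscle and adipocytes and not for the other cells given here. A sum follows its brightest markers. By mean log2 intensity neuron markers (7.44 and 7.59 against 7.41 and 7.60) overlapped as well. So did fibroblast markers (11.36 and 11.59 against 11.43 and 11.07). The part of these cells in the results was not tested.

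Many transporter probes gave no signal above background in nerve, which does not by itself show that the RNA was absent. A probe counted as detected on an array when its detection p-value against the negative controls was under 0.05, and a probe was kept when both arrays of at least 1 genotype detected it. Of the 120 probes 40 were detected on all 4 arrays, 56 on none and 24 on 1 to 3, and 47 (39.2%) were kept, against 48.2% of all probes with a gene. The kept probes covered 34 of the 58 genes, among them 33 of the 57 transporters. The other 24 had signals between 102 and 176 on all arrays. In 18 of these 24 no array detected any probe, in 4 the best probe was detected on 1 array, and in 2, Slc36a3 and Slc38a1, on 2 arrays. Among the undetected genes were the dopamine transporter Slc6a3, the glycine transporter Slc6a5, the intestinal and renal carriers Slc6a14, Slc6a18 and Slc7a9, and Slc7a1, the widely expressed importer of arginine and lysine. Slc1a2, the main glutamate transporter of brain astrocytes, had 5 probes and a detection p under 0.05 on at most 1 array at any of them. At the edge of the filter, the kept probes with the weakest detection belonged to Slc6a19, Slc1a7, Slc1a5 and Slc7a11 (deciding detection value 0.0438, 0.0374, 0.0363 and 0.0363). The first probes to miss it belonged to Slc7a11, Slc1a5 and Slc1a2 (0.0566, 0.0577 and 0.0684).

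**Figure D1:**
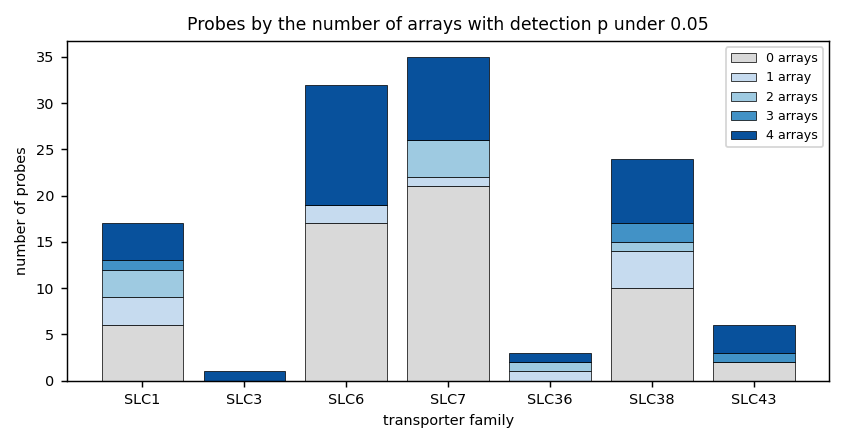
Number of probes in each transporter family (vertical axis), stacked by how many of the 4 arrays detected them at a detection p under 0.05; the 2 probes of Slc7a6os are not drawn. SLC7 has the most probes, 35, of which 21 were detected on no array, and in SLC6 17 of 32 were detected on no array.

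Of the 34 genes tested, 2 rose in LKB1-SCKO nerves, Slc1a1 and Slc1a4, and 0 fell, at an adjusted p under 0.05 over all 10858 genes tested (limma, Benjamini-Hochberg). Over all genes 3.79% passed that threshold and 2.46% passed it upward. At an unadjusted p under 0.05 there were 14 of 34, 9 above 0 and 5 below, where 22.4% of all genes passed. The pools of the genotypes did not overlap in 19 of the 34, as in 55.1% of all genes, a share near the background. The median log2 fold change was 0.12 over the 34 genes and 0.01 over all genes, and 26 were above 0. With each array scaled to its median instead, 22 of the 34 were above 0, while the share of all genes above 0 went from 51.6% to 40.9%. Since 3 of the 34 (Slc1a1, Slc1a7 and Slc7a11) passed the filter through the LKB1-SCKO arrays alone, these counts describe the genes tested, not all members.

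**Figure D2:**
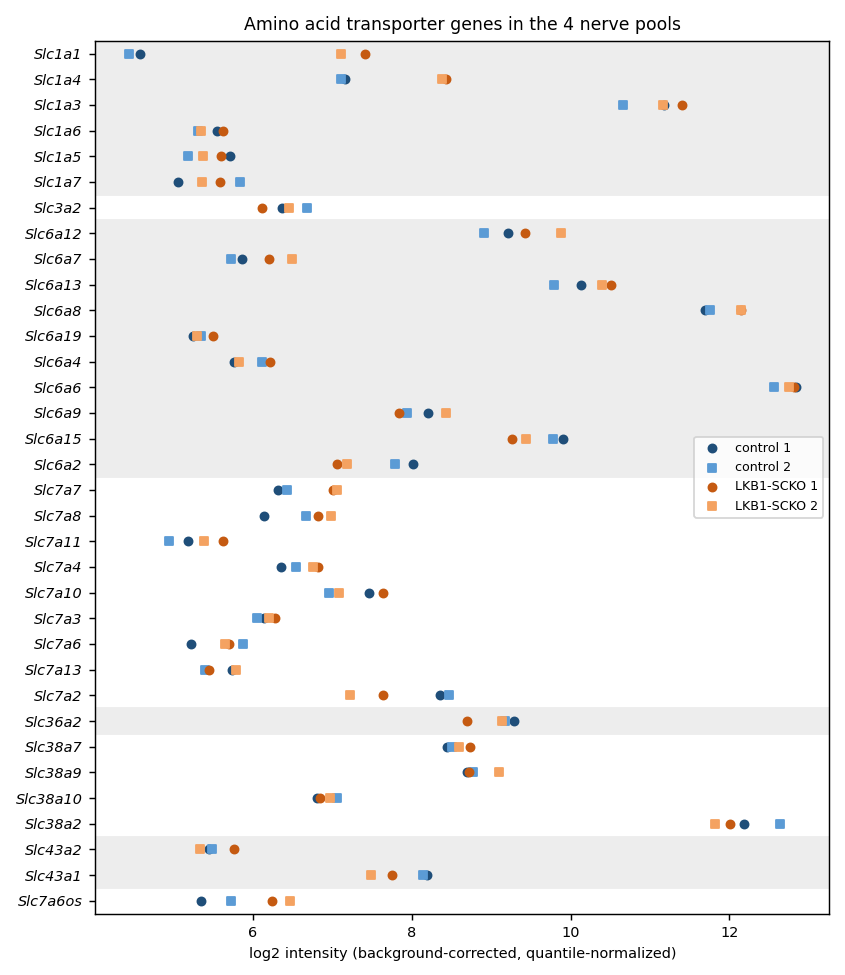
Log2 intensity (horizontal axis) of each of the 34 genes tested in the 2 control and 2 LKB1-SCKO pools, grouped by family in shaded bands; positions of different genes cannot be compared, since each is read by its own probe. Slc1a1 and Slc1a4 show the widest gaps between genotypes, whereas the pools of Slc1a5 or Slc6a6 lie among each other.

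Among the glutamate and neutral amino acid transporters of SLC1, Slc1a1 showed the largest change of any member. It encodes a sodium-driven transporter that brings glutamate, aspartate and cysteine into neurons and epithelial cells. Its signal was 133 and 129 in control pools, where it was not detected, and 285 and 275 in the LKB1-SCKO pools. The log2 intensities were 4.57 and 4.43 against 7.41 and 7.11. Both LKB1-SCKO pools thus lay far above both control pools. Measured against the lowest detected signal of the control arrays, the rise was at least 4.21-fold, that is at least 2.07 on the log2 scale (fitted log2 fold change 2.76, SE 0.161, adjusted p = 0.0037). Without background correction the log2 fold change was 1.00, with an adjusted p of 0.0075, so the bound holds for this processing only. The other probes of Slc1a1 stayed near background. A second probe had signals of 165 and 160 against 147 and 177, and another, never detected, 130 and 128 against 141 and 151, for log2 differences of -0.17 and 0.18.

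Slc1a4 encodes an exchanger of serine, alanine, cysteine and threonine, and has 1 probe. It was detected on all arrays, with signals of 270 and 274 in control pools and 445 and 475 in LKB1-SCKO pools. Log2 intensities of 7.16 and 7.11 stood against 8.43 and 8.38, so that the spread within a genotype was small beside the gap between them. The rise was 2.41-fold (log2 fold change 1.27, SE 0.126, adjusted p = 0.0122). Without control 1 or control 2 it missed the threshold (adjusted p = 0.053 and 0.0781), at log2 fold changes of 1.29 and 1.24.

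Slc1a3, the glutamate transporter typical of glial cells, measured 11.17 and 10.66 in control pools and 11.40 and 11.17 in LKB1-SCKO pools. Control 1 lay level with LKB1-SCKO 2, and the difference of 0.37 (SE 0.212, adjusted p = 0.368) did not pass. The remaining SLC1 genes tested were Slc1a5, the glutamine exchanger of dividing cells, Slc1a6, a glutamate transporter of cerebellar neurons, and Slc1a7, one of the retina. Their log2 fold changes were 0.04, 0.07 and 0.02, smaller than their SE of 0.217, 0.168 and 0.279, and their signals ranged from 155 to 187. The sign of each of these 3 genes turned in some other settings, pools left out included.

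The promoters of both genes that rose were read for motifs, together with those of Slc7a7 and Slc7a11, which hold the same motif as Slc1a4 (for Slc7a7, in 2 of its 5 listed windows). They are shown because ATF4, a transcription factor made when amino acids run short, binds the element TGATGNAA in genes of amino acid uptake. Each run covers 300 bases around the start of the gene, most of them before it, in RefSeq (build GRCm38.p6), 5′ to 3′ on the strand of the gene, with motif matches in capitals.
Slc1a1, chr19:28834885-28835184, plus strand: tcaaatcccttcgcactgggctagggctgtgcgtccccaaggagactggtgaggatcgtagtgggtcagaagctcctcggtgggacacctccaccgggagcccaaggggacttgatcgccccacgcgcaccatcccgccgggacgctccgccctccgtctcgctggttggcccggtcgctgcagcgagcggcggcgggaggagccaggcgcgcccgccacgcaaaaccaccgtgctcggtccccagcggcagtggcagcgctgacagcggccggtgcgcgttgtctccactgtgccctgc
Slc1a4, chr11:20332664-20332963, minus strand: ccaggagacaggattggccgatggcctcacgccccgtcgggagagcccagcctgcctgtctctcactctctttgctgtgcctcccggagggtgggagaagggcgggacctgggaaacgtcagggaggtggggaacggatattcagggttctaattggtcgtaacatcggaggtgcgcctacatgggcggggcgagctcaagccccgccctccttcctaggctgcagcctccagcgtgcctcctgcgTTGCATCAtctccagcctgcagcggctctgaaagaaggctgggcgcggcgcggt
Slc7a11, chr3:50443564-50443863, minus strand: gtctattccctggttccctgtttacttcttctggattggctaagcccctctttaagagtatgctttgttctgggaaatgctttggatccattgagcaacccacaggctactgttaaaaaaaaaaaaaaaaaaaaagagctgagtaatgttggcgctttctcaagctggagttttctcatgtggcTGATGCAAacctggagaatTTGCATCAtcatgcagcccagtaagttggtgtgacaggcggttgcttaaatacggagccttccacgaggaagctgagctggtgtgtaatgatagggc
Slc7a7, chr14:54417895-54418194, minus strand, 1 of 5 listed starts: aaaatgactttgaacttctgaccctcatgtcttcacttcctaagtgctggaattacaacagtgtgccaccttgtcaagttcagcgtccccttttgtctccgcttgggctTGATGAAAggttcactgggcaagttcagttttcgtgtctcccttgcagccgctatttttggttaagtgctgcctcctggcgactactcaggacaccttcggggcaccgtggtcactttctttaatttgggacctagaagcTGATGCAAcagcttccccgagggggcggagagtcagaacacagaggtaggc

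Promoters were listed for 42 of the 58 genes. On either strand TGATGNAA occurred in 4 of the 42 (9.52%), Slc1a4, Slc7a7, Slc7a11 and Slc6a21, and in 4.51% of all 27025 genes with a listed promoter of this length. The CREB element TGACGTCA occurred in 0 of 42 and in 2.03% of all genes, and the MYC E-box CACGTG in 8 of 42 (19.0%) and in 8.09% of all genes. No member promoter held more than 1 of the 3 motifs, so no matches of different motifs overlapped. Slc1a1 held none of the 3 in this window. Genes with several starts had several windows, and a match is a description of the letters alone.

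SLC3 had 1 member, Slc3a2, the heavy chain that carries SLC7 light chains to the cell membrane. Its log2 intensities were 6.36 and 6.68 in control pools and 6.11 and 6.45 in LKB1-SCKO pools, which overlapped (log2 fold change -0.24, SE 0.191, adjusted p = 0.506).

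In SLC7, 0 of 9 genes tested passed the threshold over all genes (limma, 3 at an unadjusted p under 0.05). With a log2 fold change of -0.98, 1.97-fold less in LKB1-SCKO, Slc7a2 had the largest difference (SE 0.182, adjusted p = 0.0559). It encodes a carrier that imports arginine, lysine and ornithine. Signals of 458 and 496 in control pools stood against 313 and 287 in LKB1-SCKO pools, and log2 intensities of 8.36 and 8.47 against 7.64 and 7.22. The pools of the genotypes lay well apart. A second kept probe had 178 and 189 against 151 and 172 (log2 fold change -0.77, adjusted p = 0.0776 with each probe tested on its own). Both control pools detected that probe and neither LKB1-SCKO pool did (detection p 0.175 and 0.0716). It was thus kept through the control pools alone, and the size of its difference rests on undetected values. Slc7a2 lay just outside the threshold, and passed it under 6 of 15 other settings or left-out pools (adjusted p from 0.0289 to 0.216 over all 15).

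Slc7a7 encodes a light chain that exports arginine and lysine in exchange for neutral amino acids and is known from epithelia and macrophages. Its signals were 205 and 219 in control pools and 246 and 271 in LKB1-SCKO pools (log2 fold change 0.66, SE 0.131, adjusted p = 0.0643). Under other processing the log2 fold change went from 0.27 to 0.90. A second kept probe had 172 and 204 against 258 and 258, a log2 fold change of 1.15 (adjusted p = 0.0823 with each probe tested on its own). Neither probe passed, and at both the LKB1-SCKO pools lay above the control pools. Of 16 macrophage markers tested, all those on the array, 4 rose and 13 were above 0. Over all genes tested 2.46% rose and 51.6% were above 0. Their summed level was 11687 and 17830 in control pools and 26501 and 21294 in LKB1-SCKO pools. Their part in the value of Slc7a7 was not tested.

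Slc7a11, the cystine importer that exports glutamate in return, was near background. Its kept probe was undetected in both control pools (signals of 159 and 155, detection p 0.0556 and 0.171). Both LKB1-SCKO pools detected it (174 and 179, detection p 0.00855 and 0.0363), and it was tested through these pools alone. The normalized values gave a bound of 1.24-fold higher there (log2 fold change 0.44, adjusted p = 0.205), and the difference did not pass. That bound holds for this processing only, since the log2 fold change was 0.11 without background correction. Its other 4 probes had log2 differences between -0.13 and 0.03. Slc7a10, an exchanger of small neutral amino acids known from astrocytes and fat cells, stood at 7.45 and 6.96 against 7.64 and 7.08 (log2 fold change 0.15, SE 0.262), and its control pools differed by more than the genotypes did. The other members were Slc7a8, a light chain for large neutral amino acids, at 0.50, Slc7a4 at 0.34, the cationic carrier Slc7a3 at 0.15, Slc7a6 at 0.13 and Slc7a13 at 0.04, with adjusted p of 0.235 or more. The sign turned in some other settings for Slc7a6, Slc7a10 and Slc7a13. Slc7a6os, the neighbour that is no transporter, had log2 intensities of 5.34 and 5.72 against 6.24 and 6.46 (log2 fold change 0.82, SE 0.183, adjusted p = 0.0839), while its second kept probe stood at 0.21. The signals behind the first were 165 and 183 against 198 and 226, and its log2 fold change was as low as 0.25 under other processing.

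**Figure D3:**
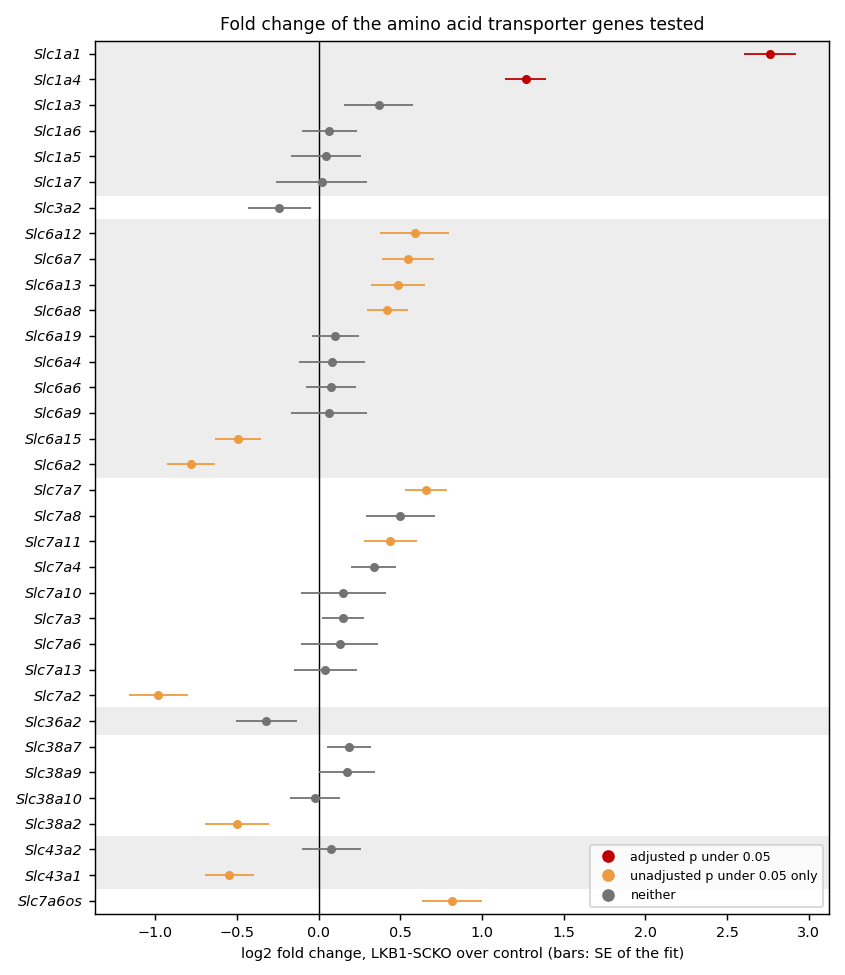
Log2 fold change of LKB1-SCKO over control (horizontal axis) with its SE for the 34 genes tested, coloured by whether the adjusted p, only the unadjusted p, or neither was under 0.05. Slc1a1 (2.76 as fitted, with a bound of 2.07 since control pools were undetected) and Slc1a4 (1.27) stand apart, and Slc7a2 (-0.98) and Slc6a2 (-0.78) are the lowest.

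Among the SLC6 carriers, which bring in neurotransmitters, osmolytes and amino acids with sodium and chloride, 0 of 10 genes tested passed the threshold (limma, 6 at an unadjusted p under 0.05). Slc6a2, the noradrenaline transporter, was closest to it. Signals were 385 and 359 in control pools and 251 and 282 in LKB1-SCKO pools, with log2 intensities of 8.01 and 7.79 against 7.06 and 7.18. Both LKB1-SCKO pools lay below both control pools (log2 fold change -0.78, SE 0.147, adjusted p = 0.0573), and 4 of 15 other settings or left-out pools brought it past the threshold (adjusted p from 0.0388 to 0.204 over all 15). Its other 2 probes were not kept. Slc6a15, an importer of branched-chain amino acids and proline, had signals of 1102 and 1041 against 694 and 833. Its log2 fold change was -0.49 (SE 0.141, adjusted p = 0.133), and a second kept probe near background stood at 0.01.

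Slc6a12 and Slc6a13, which take up betaine or taurine as well as GABA, lie beside each other on chromosome 6 with no protein-coding gene between them. Slc6a12 had log2 intensities of 9.22 and 8.91 in control pools and 9.42 and 9.88 in LKB1-SCKO pools (log2 fold change 0.59, SE 0.211, adjusted p = 0.195). For Slc6a13 they were 10.13 and 9.80 against 10.50 and 10.40 (log2 fold change 0.49, SE 0.165, adjusted p = 0.177). In both genes the LKB1-SCKO pools lay above the control pools, and neither passed. The other tested neighbours among the members were Slc7a6 and Slc7a6os, given above.

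Slc6a8, the creatine transporter, had closely matched pools, with signals of 3578 and 3708 in control and 4412 and 4648 in LKB1-SCKO, and log2 intensities of 11.69 and 11.76 against 12.15 and 12.14. Its log2 fold change of 0.42 (SE 0.126, adjusted p = 0.143) did not pass. The proline transporter gene Slc6a7 stood at 5.86 and 5.72 against 6.19 and 6.49 (log2 fold change 0.55, SE 0.159, adjusted p = 0.139). Its signals were low, 183 and 183 against 196 and 227, and the log2 fold change was as low as 0.17 under other processing. Slc6a6, the taurine transporter, measured 12.84 and 12.57 in control pools and 12.81 and 12.75 in LKB1-SCKO pools. These overlapped, with a log2 fold change of 0.08 (SE 0.151) that turned to -0.04 with median scaling and to -0.06 without control 2, while a second kept probe near background stood at 0.56. The serotonin transporter Slc6a4, the glycine transporter Slc6a9 and the neutral amino acid carrier Slc6a19 lay between 0.06 and 0.10, all smaller than their SE, and for Slc6a4 and Slc6a9 the sign turned in some other settings.

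The sodium-coupled SLC38 family gave 4 tested genes, and none passed (limma, 1 at an unadjusted p under 0.05). Slc38a2, which imports alanine, serine and glutamine and is known to be induced when amino acids are scarce, had signals of 4871 and 6790 in control pools and 4013 and 3711 in LKB1-SCKO pools. Its log2 intensities were 12.18 and 12.64 against 12.01 and 11.82, with no overlap between genotypes (log2 fold change -0.50, SE 0.196, adjusted p = 0.221). The value was -0.27 without control 2, -0.73 without control 1 and -0.18 with the mean over probes. A second probe gave -0.53, from signals of 1490 and 1665 against 1138 and 1014, whereas another near background gave 0.49. Slc38a9, a lysosomal transporter that reports arginine to mTORC1, stood at 8.70 and 8.77 against 8.72 and 9.10 (log2 fold change 0.17, SE 0.171). Its other kept probes were at -0.18 and -0.38, the latter near background and undetected in LKB1-SCKO 1. The direction of Slc38a9 turned with the mean over probes (-0.13) and without LKB1-SCKO 2 (-0.02). Slc38a7, a lysosomal glutamine exporter, was at 0.18 and Slc38a10 at -0.02, with a sign that turned in some other settings.

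Slc36a2, a proton-coupled importer of glycine, alanine and proline, was the only SLC36 gene tested. Signals of 763 and 731 in control pools stood against 512 and 701 in LKB1-SCKO pools, and log2 intensities of 9.29 and 9.17 against 8.69 and 9.13 (log2 fold change -0.32, SE 0.187, adjusted p = 0.372). LKB1-SCKO 1, the pool with the lowest level of muscle markers, was the lowest. LKB1-SCKO 2, the pool with the highest level of these markers, also lay below both control pools. The difference was -0.10 without LKB1-SCKO 1 and -0.54 without LKB1-SCKO 2. The part of muscle in this value was not tested.

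Slc43a1, a facilitated carrier of leucine and other large neutral amino acids, had signals of 420 and 420 in control pools and 326 and 317 in LKB1-SCKO pools. The log2 intensities were 8.18 and 8.14 against 7.75 and 7.48 (log2 fold change -0.55, SE 0.149, adjusted p = 0.119). A second kept probe gave -0.76, from 202 and 207 against 177 and 175. It was kept through the control pools alone, since LKB1-SCKO 2 did not detect it (detection p 0.0524). At both probes the LKB1-SCKO pools lay below the control pools, and neither probe passed. Slc43a2, a related carrier, was close to background at 5.45 and 5.48 against 5.75 and 5.33 (log2 fold change 0.08, SE 0.179), and stood at -0.13 without LKB1-SCKO 1. Over all families, 11 genes had several kept probes, and of their 13 further probes 8 had the sign of the probe that stood for the gene and 5 the other sign. Some of these 13 were kept through 1 genotype alone.

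**Figure D4:**
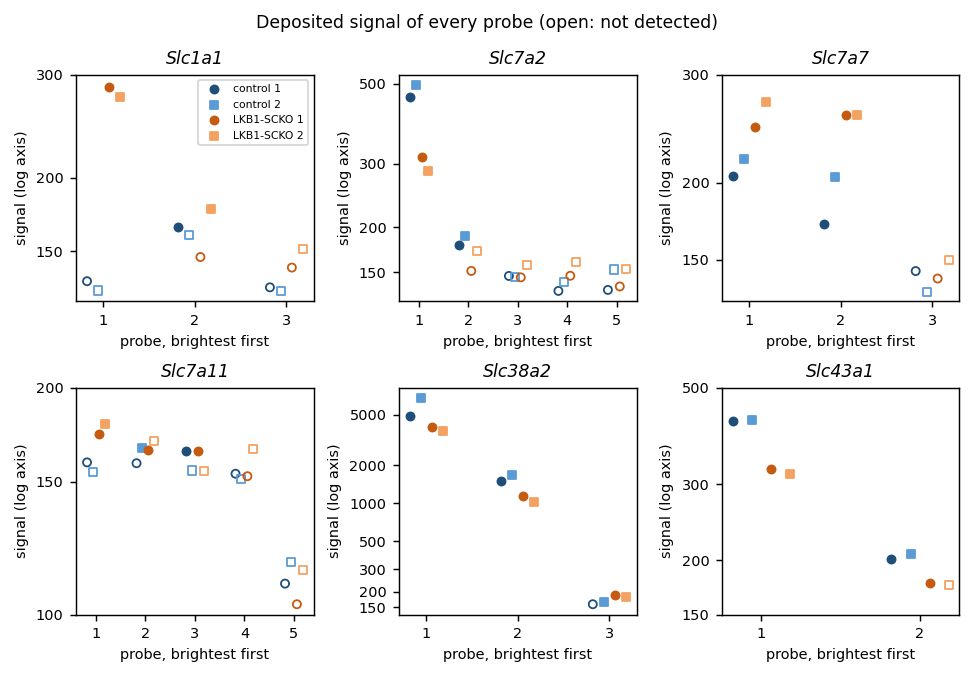
Deposited signal (vertical log axis) of every probe of 6 members in the 4 pools, ordered by mean signal; open symbols were not detected. The probe that stands for Slc1a1 separates the genotypes widely and its other 2 lie between 128 and 177, while 2 probes each of Slc7a2, Slc7a7, Slc38a2 and Slc43a1 order the genotypes alike. Of these, the dimmer Slc7a2 probe was undetected in both LKB1-SCKO pools, and the dimmer Slc43a1 probe in LKB1-SCKO 2.

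Other genes of amino acid handling were taken from 9 lists (117 distinct genes tested). Of these, 2 rose and 2 fell, 3.42%, close to the 3.79% over all genes. Among 15 other amino acid and peptide carriers, Slc17a8, a transporter that loads glutamate into vesicles, rose 7.81-fold, with log2 intensities of 6.16 and 5.97 against 9.14 and 8.93 (log2 fold change 2.97, SE 0.152, adjusted p = 0.00353). It passed whichever pool was left out, at adjusted p up to 0.0134. Slc15a2, an importer of short peptides, fell 2.22-fold, from 8.24 and 8.56 to 7.19 and 7.30 (log2 fold change -1.15, SE 0.162, adjusted p = 0.0305; 0.0462 to 0.135 without 1 pool). Both of these carriers had pools that lay far apart between genotypes.

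Among 14 genes of arginine, polyamine and creatine metabolism, Gamt, the enzyme of the last step of creatine synthesis, rose 1.80-fold, from 10.00 and 9.95 to 10.90 and 10.76 (adjusted p = 0.0385; 0.0529 to 0.193 without 1 pool). Of 27 genes of amino acid sensing by mTORC1 and GCN2, Rragb, a small GTPase that brings mTORC1 to the lysosome, fell 2.29-fold, from 8.25 and 8.33 to 6.87 and 7.32 (adjusted p = 0.0391; 0.0193 to 0.163 without 1 pool). In 6 lists no member passed (limma). Glutamate and glutamine enzymes had 0 of 11 past the threshold and 2 at an unadjusted p under 0.05, with Got2 at 0.33 and Oat at -0.31. Serine, glycine and one-carbon enzymes had 0 of 8 (2 unadjusted), with Srr at -0.42 and Psat1 at -0.16, and those of cysteine, taurine and glutathione 0 of 8 (1 unadjusted), with Cdo1 at 0.17 and Ahcy at -0.09.

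Breakdown of branched-chain amino acids had 0 of 15 genes past the threshold (1 unadjusted), with Hibadh at 0.10 and Pccb at -0.07. The ATF4 pathway, whose element the promoters above were read for, had 0 of 16 (1 unadjusted), with Ndrg1 at -0.36 and Herpud1 at -0.05 and a median of 0.03. Receptors and enzymes of GABA and monoamines had 0 of 4 (0 unadjusted), with Abat at -0.31 and Gphn at -0.18.

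**Figure D5:**
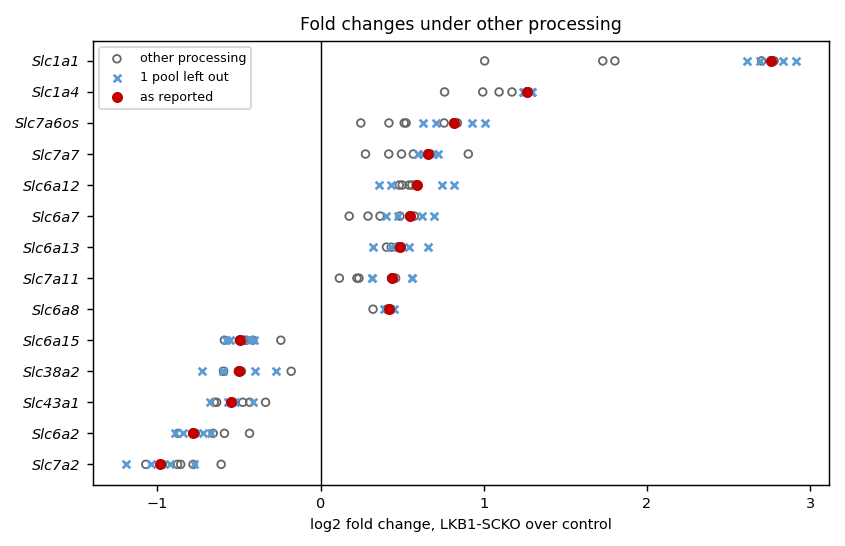
Log2 fold change of LKB1-SCKO over control (horizontal axis) for the 14 members with an unadjusted p under 0.05, as reported (filled red), with other processing (open) and with 1 pool left out (crosses). No point crosses 0, and Slc1a1 ranges most widely, from 1.00 to 2.91.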

How the data were processed

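RNA of 4 nerve pools was hybridised to Illumina MouseWG-6 beadchips. Per the file headers, the deposited table holds non-normalized signal intensity and a detection p-value for 45281 probes; the authors' processed intensity values form a further deposited table, with a minimum of -53.1 and no stated normalization. The submitters' processing notes name GenomeStudio 2010, and for slides, further settings and a genome build nothing was given in the sources used here. Background was corrected by normexp (limma 3.58.1 under R 4.3.3, offset 16), and values were quantile-normalized and taken to log2. Of 16821 kept probes with a gene, the brightest stood for each of 10858 genes. Of 34885 probes with 1 platform symbol, 34807 matched RefSeq by gene ID. Genotypes were compared with lmFit and eBayes, two-sided, with Benjamini-Hochberg adjustment at 0.05; the fit was tested on simulated data. For a bound, each array of the undetected genotype took its lowest detected value, or the probe's own if higher. A summed marker level adds linear normalized intensities. Members and lists were chosen with earlier results of these data known. Named genes were those at an unadjusted p under 0.05 and the 2 brightest of each family; of each list, members past the threshold or the 2 brightest. With 4 arrays, their number limits the precision. Alternatives covered background, normalization, filter, probes, block and pools. Member genes without a probe under these symbols were not analysed here.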

Additional observations from a re-analysis of the deposited data

How the results depend on the processing

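Slc1a1 passed in every setting that tested it, while Slc1a4 missed the threshold without control 1 (log2 fold change 1.29) or control 2 (1.24). The count of members called, 2 as reported, was 4 without background correction, with an offset of 50, with the authors' processed values and with detection p under 0.01, adding Slc7a2 with Slc6a8 or Slc6a2, and 1 when detection on all 4 arrays was required, which leaves Slc1a1 untested. Without 1 pool it ranged from 1 (either control left out) to 3. Over all genes 412 were called as reported, 620 without background correction, 648 with the authors' values, 172 with a replicate block, and 112 to 483 without 1 pool, with 182 without control 1, 112 without control 2 and 225 without LKB1-SCKO 1. Of the pathway genes 4 were called as reported, 1 with the replicate block, and 1 to 5 without 1 pool, with 1 when either control and 2 when LKB1-SCKO 1 was left out. The replicate block left 2 members called. Differences between replicates 1 and 2 correlated at -0.17 between genotypes. With the numbers crossed, chosen after seeing the data, 349 genes, 2 members and 1 pathway gene were called. The members' median log2 fold change lay between 0.05 and 0.20 in all settings. Directions turned for Slc38a9 with the mean over probes (-0.13) and for Slc6a6 with median scaling (-0.037). They also turned without 1 pool, where the log2 fold change ranged from -0.017 to 0.36 for Slc38a9, -0.13 to 0.29 for Slc43a2, -0.060 to 0.21 for Slc6a6 and -0.13 to 0.43 for Slc7a10. Of the other members, Slc1a5, Slc1a6, Slc1a7, Slc6a4, Slc6a9, Slc7a6, Slc7a13 and Slc38a10 also turned in at least 1 setting. The causes were not tested. Signals near background limit, among others, Slc1a5, Slc1a6, Slc1a7, Slc6a19, Slc7a6, Slc7a11, Slc7a13 and Slc43a2.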
